A study of Mus musculus with 7 samples.

Results

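A set of genes of the RGS family (Rgs1, Rgs2, Rgs3, Rgs10, Rgs14, Rgs18 and Rgs19) was described in mouse long-term haematopoietic stem cells that carried mutant or wild-type calreticulin. They were the 7 listed RGS genes among the 19649 genes of the expression table, and they were chosen by a rule that used the difference between mutant and wild-type normalized counts. Differences between the genotypes in these genes are therefore given as values, without a test. RNA sequencing was done on 3 mutant libraries of Calr fl/fl mice with MxCre, a genotype also given as Calr del52/del52, and 4 wild-type libraries of Calr +/+ mice with MxCre. The deleted form of calreticulin, an endoplasmic reticulum chaperone, is the type of mutation found in human myeloproliferative disease. All mice of both genotypes carried MxCre, a Cre recombinase driven by an interferon-responsive promoter, and were given pI:pC to induce it, a promoter that is not specific to stem cells. The cells were sorted 14 days after induction began as cells without lineage markers or CD48 that carried Kit, Sca-1 and CD150. Nothing in the labels says whether a library came from 1 mouse or several, so the spread between libraries may be partly technical.

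G protein-coupled receptors switch on heterotrimeric G proteins by loading GTP onto their alpha subunit. RGS proteins bind the active alpha subunit and speed its hydrolysis of GTP, which ends the signal. Small RGS proteins (Rgs1, Rgs2, Rgs18, Rgs10, Rgs19) hold little more than the RGS domain, whereas Rgs14 and the long forms of Rgs3 carry further domains. In blood cells these proteins set how strongly chemokine, phospholipid and platelet agonist receptors signal.

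The libraries held 21325340 to 28710304 reads in genes. In the mutant libraries the stem cell markers, 15 of 15 of which were in the table, summed to between 67282 and 81627 normalized counts, against 70984 to 122613 in the wild-type libraries. Calr was read at 14239, 15724 and 15317 normalized counts in mutant 1 to 3, against 18606, 16639, 15922 and 15965 in wild-type 1 to 4, a level that does not check a deletion within the gene. Erythroid markers (11 of 11 in the table) summed to between 56740.1 and 71211 normalized counts in mutant and between 35440.0 and 57316 in wild-type libraries, B and plasma cell markers (7 of 11) to between 1394 and 1942 in mutant and between 981 and 1706 in wild-type libraries, and T and NK cell markers (6 of 11) to between 1739 and 2362 in mutant and between 1276 and 2928 in wild-type libraries. The wild-type libraries fell into pairs. Both of wild-type 3 and 4 lay above both of wild-type 1 and 2 for 39.2% of the 16047 tested genes and below both for 38.0%. The titles of wild-type 3 and 4 and of mutant 1 and 2 are numbered in 1 series, and the title of mutant 3 and those of wild-type 1 and 2 are not. Each RGS gene is therefore also set against each wild-type pair apart.

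In GRCm38, as annotated by GENCODE vM21, Rgs2 (chr1:143999338-144004161), Rgs1 (chr1:144242296-144249242) and Rgs18 (chr1:144752683-144775435) all lie on the minus strand of chromosome 1. The others lie apart, Rgs19 on chromosome 2 (181688419 to 181693977, minus strand), Rgs3 on chromosome 4 (62559847 to 62704001, plus strand), Rgs10 on chromosome 7 (128373621 to 128418758, minus strand) and Rgs14 on chromosome 13 (55369732 to 55384687, plus strand). No other annotated gene shares exonic bases with any of the 7, which matters because the libraries were unstranded.

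By FPKM summed over transcripts, Rgs1 was the most abundant of the 7 genes. Its transcripts summed to 490.2 ± 77.3 FPKM in mutant libraries and 396 ± 233 FPKM in wild-type libraries (SD, n = 3 and n = 4). Rgs2 summed to 198 ± 2.47 FPKM in mutant and 107 ± 57.2 FPKM in wild-type libraries, and Rgs18 had 189 ± 49.2 FPKM in mutant and 154 ± 51.3 FPKM in wild-type libraries. Rgs19 summed to 116 ± 9.26 FPKM in mutant and 103 ± 22.4 FPKM in wild-type libraries. The 3 others were low. Rgs14 had 15.6 ± 1.75 FPKM in mutant and 19.0 ± 4.21 FPKM in wild-type libraries, Rgs3 had 7.74 ± 0.51 FPKM in mutant and 8.52 ± 3.93 FPKM in wild-type libraries, and Rgs10 had 2.33 ± 1.40 FPKM in mutant and 3.50 ± 2.38 FPKM in wild-type libraries. Rgs1 ranked first in 6 of 7 libraries, with Rgs18 first in wild-type 1. Rgs2 and Rgs18 changed places between libraries, Rgs18 being the higher of the 2 in mutant 3 and in wild-type 1 and 2, and their ranges overlapped in both groups. In the wild-type libraries the ranges of Rgs1 and Rgs18 and those of Rgs2 and Rgs19 also overlapped, whereas Rgs1 lay above Rgs19 throughout. Rgs14 held rank 5 in all 7 libraries. These ranks depend on the measure. Over all libraries Rgs1 had a mean of 16862 normalized counts for 6947 exonic bases, and Rgs18 had 9066 for 2031 bases. Per exonic base of the gene, Rgs18 was thus the higher. That length counts every base in an exon of any annotated transcript. For Rgs1 it equals the whole gene from start to end, so bases that are intron in some transcripts are counted.

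**Figure D1:**
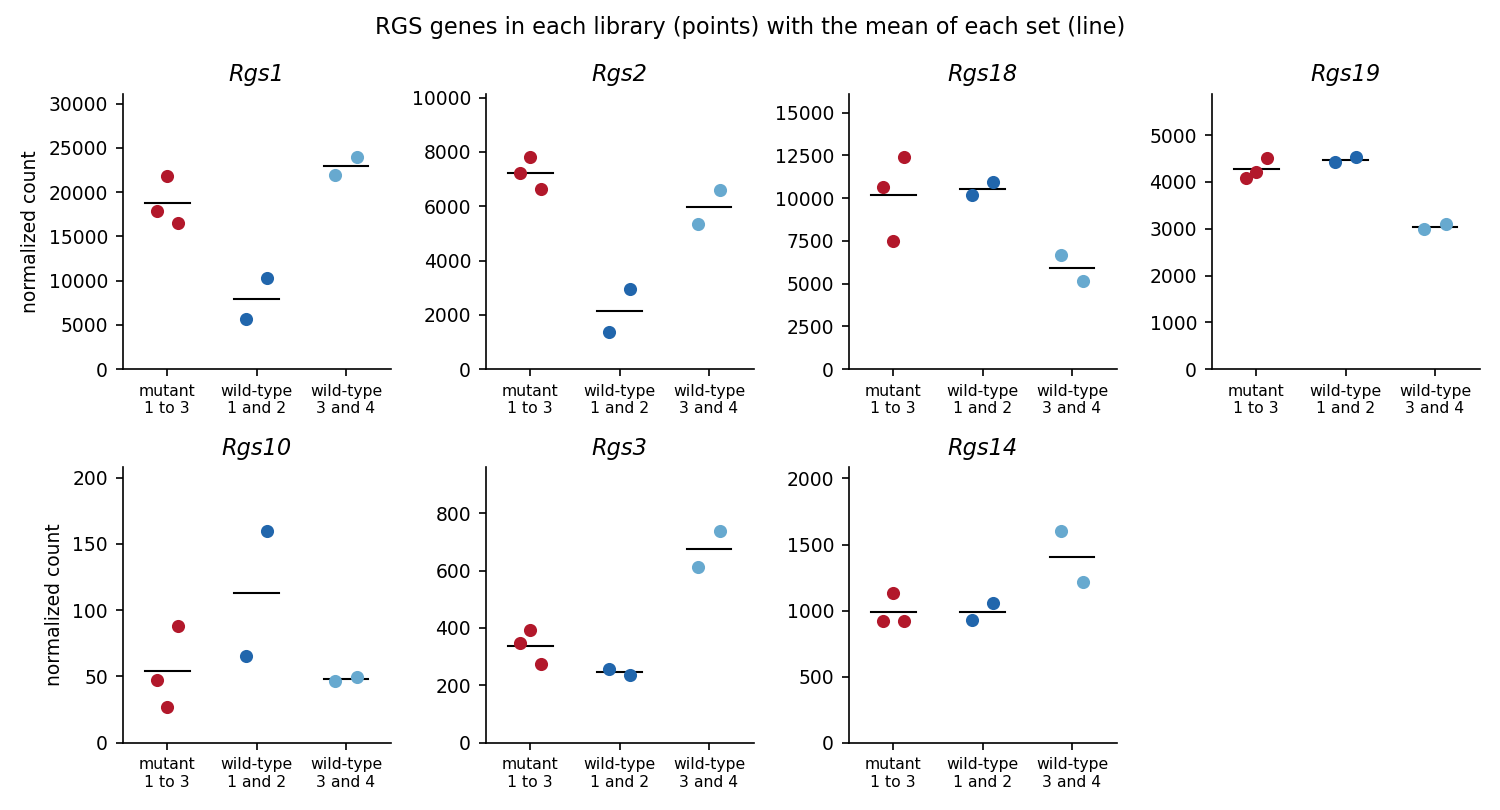
Normalized counts of the 7 RGS genes in the 3 mutant libraries, wild-type 1 and 2, and wild-type 3 and 4, each panel on its own linear axis from 0, with points for libraries and lines for the mean of each set. Only for Rgs2 do all 3 mutant points lie above all 4 wild-type points.

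Rgs2, a small RGS protein that acts chiefly on the alpha subunits of the Gq class, was the only 1 of the 7 whose groups did not overlap. It was read at 7239, 7811 and 6651 normalized counts in mutant 1 to 3, against 1355, 2966, 5362 and 6603 in wild-type 1 to 4. The lowest mutant library and the highest wild-type library were close, and wild-type 1 and 2 were low. On the log2(normalized count + 1) scale the mutant libraries were higher by 1.06 (SE 0.49), by 1.85 against wild-type 1 and 2 and by 0.28 against wild-type 3 and 4. Without wild-type 1 alone the difference was 0.61. Of all tested genes, 5.23% had their 3 mutant values above their 4 wild-type values, and 4.34% had them below. The mutant libraries varied little: the highest was 1.17 times the lowest, against 4.87 times in wild-type. In bulk samples fewer cells of a type and less RNA per cell cannot be told apart.

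Rgs1, a small RGS protein known in lymphocytes for damping chemokine receptor signals through Gi, had 17842, 21821 and 16515 normalized counts in mutant 1 to 3, against 5644, 10284, 21979.6 and 23949 in wild-type 1 to 4. The groups overlapped: all 3 mutant libraries lay above wild-type 1 and 2 and below wild-type 3 and 4. The log2 difference of mutant from wild-type was 0.49 (SE 0.48), being 1.29 against wild-type 1 and 2 and −0.30 against wild-type 3 and 4. Its sign turned in 2 of 22 alternatives, both with only wild-type 3 and 4 as reference. Without wild-type 1 alone the difference was 0.08.

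The same pair of wild-type libraries that was low in Rgs1 and Rgs2 was low in immediate early genes, a list of 22 genes such as Fos that cells switch on within minutes of a stimulus. Their normalized counts summed to 377485, 650946 and 308160.4 in mutant 1 to 3, against 79073, 174994, 865369 and 853142 in wild-type 1 to 4. Fos alone had 56786, 134259 and 58041 normalized counts in mutant 1 to 3, against 4007, 15386, 135480.3 and 147158 in wild-type 1 to 4. The part of these genes in the values of Rgs1 and Rgs2 was not tested. Mutant 1, 2 and 3 had smaller immediate early sums than wild-type 3 and 4 and more Rgs2, but less Rgs1.

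**Figure D2:**
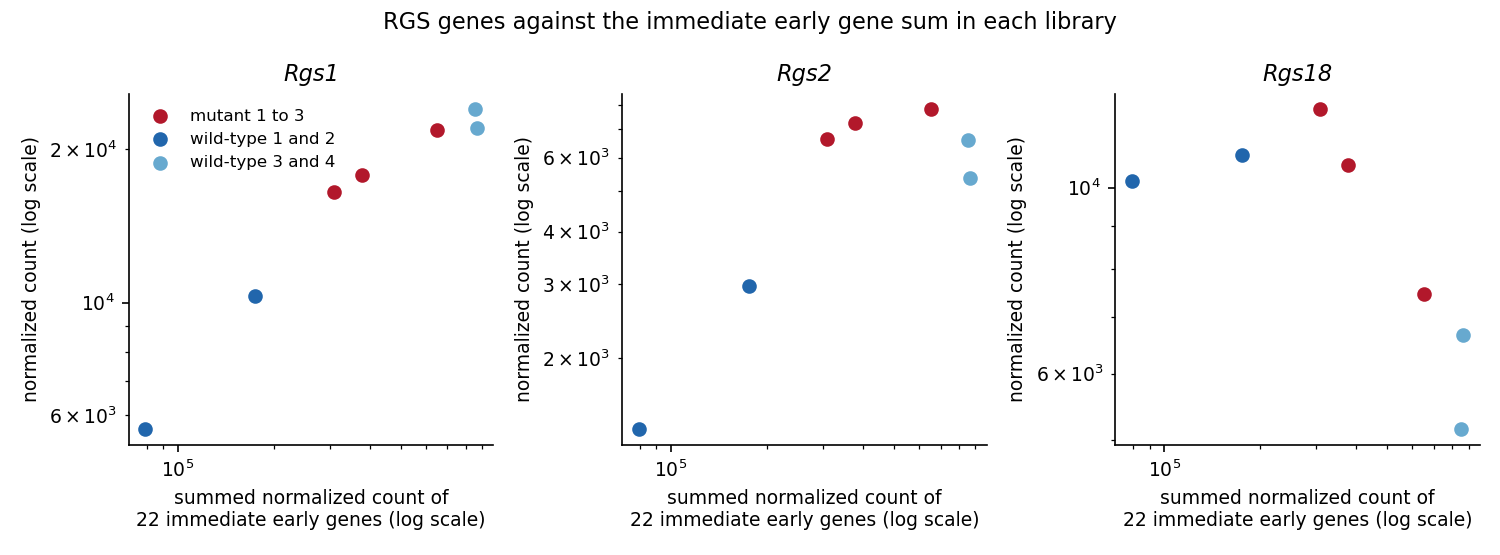
Normalized counts of Rgs1, Rgs2 and Rgs18 (y axis, log scale) against the summed normalized count of 22 immediate early genes (x axis, log scale), 1 point per library. The mutant libraries lie between wild-type 1 and 2 at the left and wild-type 3 and 4 at the right, Rgs2 is highest in the mutant libraries, and Rgs18 is lowest in wild-type 3 and 4.

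The promoter of Rgs2 is shown with that of Rgs19 because they are, among the RGS genes matched to a RefSeq start, a pair of well read genes on opposite sides of the split between the wild-type pairs, a choice made after their values were seen. The 250 bases before the start are given on the minus strand of GRCm38.p6, 5′ to 3′, at chr1:144004150-144004399 for Rgs2 and at chr2:181693978-181694227 for the most upstream start of Rgs19. Capitals mark TGACGT (the core of a cyclic AMP response element), CCAAT and GGGCGG (a GC box), searched on both strands, so that a match on the opposite strand appears as the reverse complement (ACGTCA for the first motif and CCGCCC for the GC box).
Rgs2: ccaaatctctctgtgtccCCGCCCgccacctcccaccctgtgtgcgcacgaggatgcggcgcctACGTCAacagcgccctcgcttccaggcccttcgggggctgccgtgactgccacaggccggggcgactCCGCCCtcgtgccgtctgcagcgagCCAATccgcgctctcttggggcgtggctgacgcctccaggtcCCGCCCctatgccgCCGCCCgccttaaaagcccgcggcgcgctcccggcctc
Rgs19: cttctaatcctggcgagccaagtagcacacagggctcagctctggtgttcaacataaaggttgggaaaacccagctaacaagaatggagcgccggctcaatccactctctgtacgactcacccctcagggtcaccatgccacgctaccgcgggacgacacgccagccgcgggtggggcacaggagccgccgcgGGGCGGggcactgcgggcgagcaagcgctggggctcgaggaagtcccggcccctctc
In the Rgs2 window TGACGT was found once on the opposite strand, starting 186 bases before the gene start, with 1 CCAAT and 4 GGGCGG. The Rgs19 window held 1 GGGCGG and neither of the other motifs. Of 32851 RefSeq promoter windows of this length, 6.47% held TGACGT, 33.8% CCAAT and 32.7% GGGCGG. The share of G and C was 72.4% for Rgs2 and 64.8% for Rgs19, against a median of 52.4%. These matches describe letters and show no binding. In all, 4 of the 7 genes had a RefSeq window, with 7 starts between them, and Rgs1, Rgs14 and Rgs18 did not.

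Rgs18, a small RGS protein of platelets and megakaryocytes that damps platelet activation, was read at 10639, 7471 and 12400 normalized counts in mutant 1 to 3, against 10181, 10947, 6670.0 and 5152 in wild-type 1 to 4. Mutant 2 was the lowest mutant library, and wild-type 3 and 4 lay below all 3. The difference was 0.34 (SE 0.31) on the log2 scale, −0.09 against wild-type 1 and 2 and 0.76 against wild-type 3 and 4. Markers of megakaryocytes and platelets, 13 of 14 of which were in the table, summed to 23370.0, 25481 and 28509 normalized counts in mutant 1 to 3, against 34495, 40691, 41527 and 28585 in wild-type 1 to 4. None of the 13 was at 0 in any library. Over the 13 tested, the median log2 difference of these markers was −0.63 against wild-type 1 and 2 and 0.16 against wild-type 3 and 4. The part of such cells in the Rgs18 values was not tested.

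Rgs19, which acts on Gi class alpha subunits, was by normalized count the steadiest of the 7 genes within the mutant group. The highest mutant library was 1.10 times the lowest. By summed FPKM Rgs2 was steadier, with an SD of 2.47 FPKM in mutant libraries against 9.26 FPKM for Rgs19. Rgs19 had 4085, 4218 and 4509 normalized counts in mutant 1 to 3, against 4424, 4530, 2987 and 3109 in wild-type 1 to 4. The mutant libraries overlapped wild-type 1 and 2 and lay above wild-type 3 and 4. The log2 difference was 0.21 (SE 0.20), −0.07 against wild-type 1 and 2 and 0.49 against wild-type 3 and 4.

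Rgs10, a small RGS protein best known as a brake on microglia and platelets, was read too thinly for close comparison, at 30 to 154 reads per library. It had 47.1, 26.8 and 88.2 normalized counts in mutant 1 to 3, against 65.6, 160.0, 46.7 and 49.9 in wild-type 1 to 4. The groups overlapped, and wild-type 2 was far above the others. The difference was −0.54 (SE 0.54) on the log2 scale, −1.07 against wild-type 1 and 2 and −0.00 against wild-type 3 and 4. Leaving out 1 library at a time, it ran from −0.97 without mutant 3 to −0.12 without mutant 2, and was −0.15 without wild-type 2. Counting error alone gave wild-type 2 a 95% exact Poisson interval of 136 to 187 normalized counts and mutant 2 one of 18.1 to 38.2.

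Rgs3, whose long forms carry a PDZ domain and which acts on Gi and Gq class subunits, had 349, 394 and 273 normalized counts in mutant 1 to 3, against 256, 237, 613 and 739 in wild-type 1 to 4. All 3 mutant libraries lay between the wild-type pairs. The log2 difference was −0.28 (SE 0.43), 0.44 against wild-type 1 and 2 and −1.01 against wild-type 3 and 4. Its sign turned in 4 of 22 alternatives.

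Rgs14, which joins an RGS domain to Ras-binding and GoLoco domains, had 919, 1131 and 923 normalized counts in mutant 1 to 3, against 929, 1057, 1605 and 1213 in wild-type 1 to 4. The mutant libraries overlapped wild-type 1 and 2 and lay below wild-type 3 and 4. The difference was −0.25 (SE 0.22) on the log2 scale, −0.01 against wild-type 1 and 2 and −0.50 against wild-type 3 and 4.

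**Figure D3:**
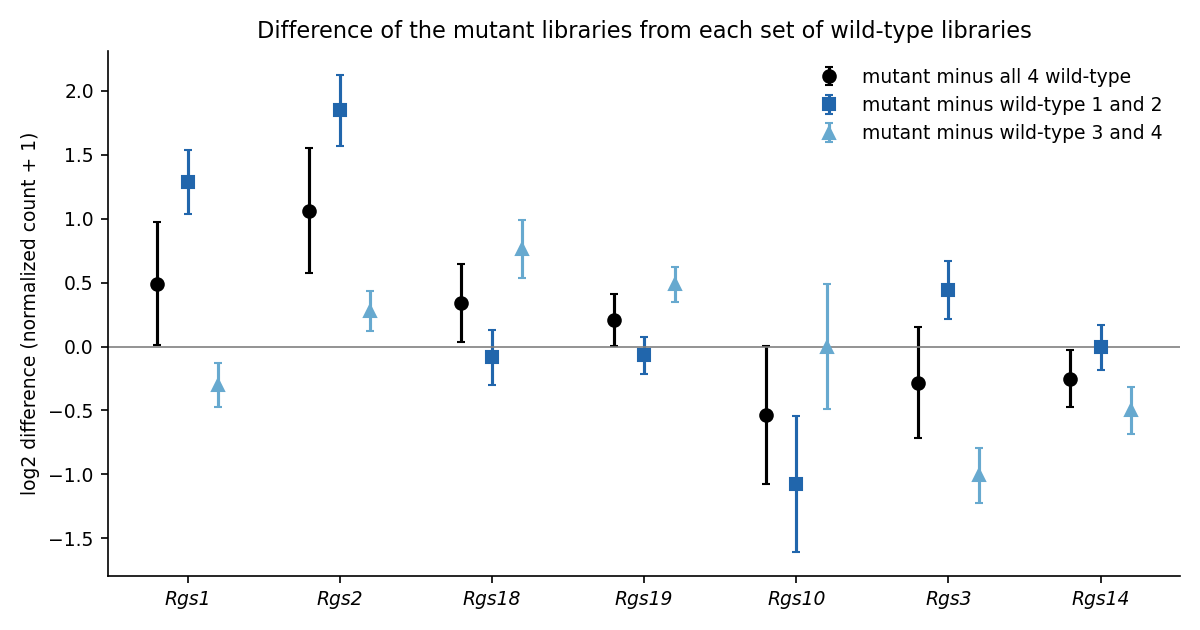
Log2 difference of normalized count + 1 of the mutant libraries from all 4 wild-type libraries, from wild-type 1 and 2, and from wild-type 3 and 4, with limma's standard error as bars. The black points run from 1.06 for Rgs2 to −0.54 for Rgs10, and for Rgs1, Rgs3, Rgs18 and Rgs19 the values against the wild-type pairs lie on opposite sides of 0.

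Against wild-type 1 and 2, all 3 mutant libraries were above for 3 of 7 genes (Rgs1, Rgs2 and Rgs3) and below for 0, where 13.9% and 12.4% of tested genes were so placed. Against wild-type 3 and 4 they were above for 3 (Rgs2, Rgs18 and Rgs19) and below for 3 (Rgs1, Rgs3 and Rgs14), where 33.8% of tested genes were above and 33.8% below. Rgs2 was the 1 gene on the same side of both pairs. Wild-type 3 and 4 were both above wild-type 1 and 2 for 39.2% of tested genes and both below for 38.0%, so most genes were separated. The wild-type pairs also separated all 7 RGS genes: wild-type 3 and 4 were above for Rgs1, Rgs2, Rgs3 and Rgs14 and below for Rgs10, Rgs18 and Rgs19. The 4 that were higher have the longest exonic sequences, 3627 to 10801 bases in GENCODE vM21, and the 3 that were lower the shortest, 1711 to 2230 bases. These lengths join the exons of all annotated transcripts, so they can exceed those of the RNA present. For Rgs1 the length is that of the whole gene, and of 17 Rgs3 transcripts 2 had a mean of at least 1 FPKM. Across all tested genes, the slope of a library's log2 deviation on log2 exonic length was 0.24 in both wild-type 3 and 4, between −0.17 and 0.01 in the mutant libraries and between −0.11 and −0.10 in wild-type 1 and 2. The part of length in these values was not tested. With that slope as a covariate, the log2 difference was 1.73 for Rgs2, 1.19 for Rgs1, 0.37 for Rgs3, −0.02 for Rgs14, −0.03 for Rgs19, −0.09 for Rgs18 and −1.17 for Rgs10. These values lie near those against wild-type 1 and 2. Wild-type 3 and 4 stood apart from all other libraries in the slope, so length and the wild-type pair cannot be told apart in that fit. Within the title series of mutant 1 and 2 and wild-type 3 and 4, the difference was 0.34 for Rgs2, and among the other 3 libraries 1.73. Over all 7 libraries 4 of the 7 genes had a positive difference, against 50.1% of all tested genes. Rgs2 kept its positive sign in 22 of 22 alternatives, and Rgs10 and Rgs14 their negative sign. For the latter the difference came close to 0, at −0.0015 for Rgs10 against wild-type 3 and 4 and −0.0061 for Rgs14 against wild-type 1 and 2. The alternatives reuse the same libraries, so they are not independent.

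The make-up of transcripts was compared for the 4 genes with more than 1 transcript above 1 FPKM, since the choice of genes did not use it. The share of the most abundant transcript in the summed FPKM was taken, with an exact two-sided permutation test over 35 splits, whose smallest p is 0.0286. Rgs19-201, a protein-coding transcript, made up 66.3%, 70.2% and 67.2% in mutant 1 to 3, against 64.2%, 63.5%, 60.4% and 60.8% in wild-type 1 to 4. The mutant libraries were above all wild-type ones, by 5.71 percentage points on average. The exact permutation p was 0.0286, the smallest these splits can give, and the adjusted p was 0.114 over the 4 genes. The difference did not pass, and 1 gene alone at the smallest p cannot pass when 4 are adjusted together. Against wild-type 1 and 2 the gap was 4.06 points, and against wild-type 3 and 4 it was 7.36 points.

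For the other genes the groups overlapped. Rgs1-204, annotated as subject to nonsense-mediated decay, made up 64.0% ± 2.71 in mutant and 62.1% ± 4.42 in wild-type libraries (SD, exact permutation p = 0.457, adjusted 0.609). Rgs2-201, annotated likewise, made up 33.5% ± 1.49 in mutant and 31.7% ± 4.39 in wild-type libraries (SD, exact permutation p = 0.686, adjusted 0.686). The non-coding transcript Rgs3-213 made up 49.4% ± 6.89 in mutant and 42.6% ± 8.35 in wild-type libraries (SD, exact permutation p = 0.257, adjusted 0.514). The FPKM table gives no depth for a transcript, and transcripts of 1 gene share most of their reads.

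**Figure D4:**
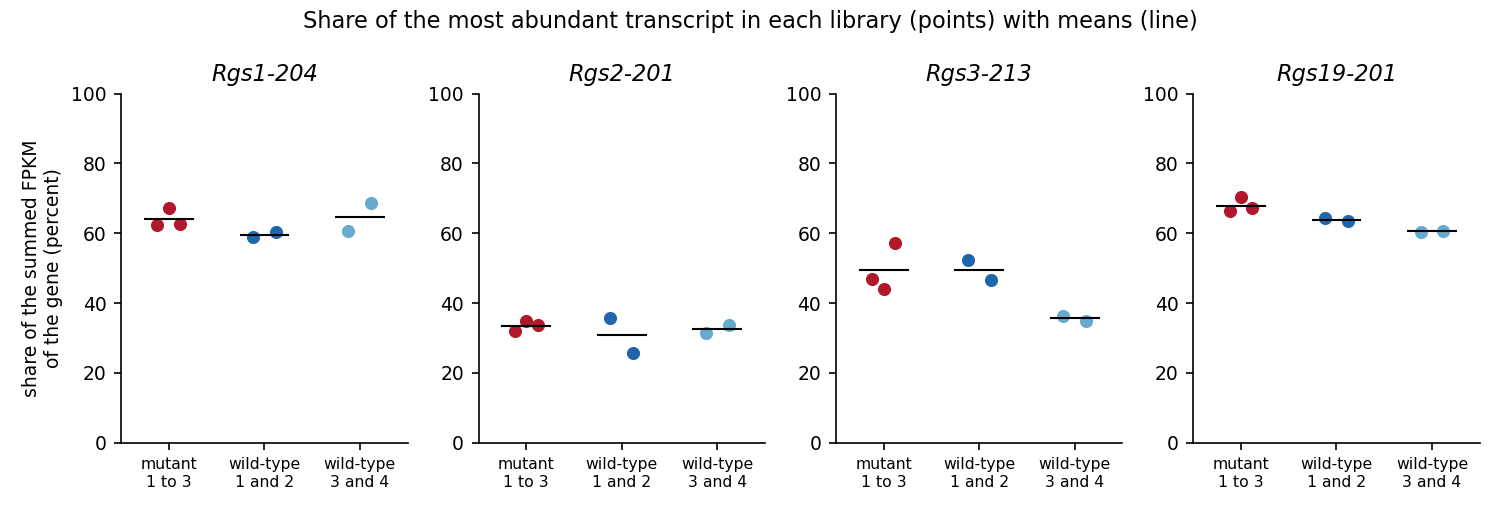
Share of the most abundant transcript in the summed FPKM of its gene (percent, axis from 0 to 100) in the mutant libraries, wild-type 1 and 2, and wild-type 3 and 4. For Rgs19-201 the 3 mutant points lie at 66.3% to 70.2% and the 4 wild-type points at 60.4% to 64.2%, and for the other 3 the groups overlap.

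The genes that RGS proteins act with were taken as 7 lists of 162 genes: other RGS genes, G protein subunits, receptors, effectors and other regulators. Of them 123 were tested, and 0 passed an adjusted p of 0.05 in limma in either direction, as for all genes, where 0.0% passed. At an unadjusted p of 0.05, 13 of the 123 and 1365 of all tested genes (8.51%) passed, and edgeR's quasi-likelihood test also called 0. DESeq2 called 2 of the 123 (0.667% of all genes), both receptors that were lower in mutants. The call depended on the title series: with it as a covariate, limma called 33 of the 123 (22.4% of all genes), 5 higher in mutants (9.96% of all genes) and 28 lower (12.5% of all genes). Of the 21 genes of these lists named here, 13 passed in that fit, and their adjusted p is given beside them. The 21 were picked by smallest p or highest FPKM in these same libraries, so their share cannot be set against that of the 123. Adding each library's length slope to the model in place of the title series gave 4 calls among the 123 (0.791% of all genes). It gave 0 among the 21 named genes, whose smallest limma adjusted p was then 0.0585. That slope sets wild-type 3 and 4 apart from all other libraries, so length and the wild-type pair cannot be told apart in this fit. In 6 of the 123 the mutant values lay above all wild-type values and in 13 below, where 5.23% and 4.34% of all tested genes were so placed. Among the 123, 32 had a positive difference, and their median was −0.25 on the log2 scale, −0.02 against wild-type 1 and 2 and −0.50 against wild-type 3 and 4, where the median of all tested genes was 0.00, 0.00 and −0.00.

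Of other RGS genes and partners, 8 of 17 were in the table and 4 were tested. Rgs7bp, a membrane anchor of RGS proteins in neurons, had 1013, 722 and 1172 normalized counts in mutant 1 to 3, against 550, 541, 440 and 617 in wild-type 1 to 4. Its 3 mutant values were all above its 4 wild-type values, by 0.83 (SE 0.22) on the log2 scale and by 0.80 and 0.87 against the 2 wild-type pairs, with a limma adjusted p of 0.538, or 0.0258 with the title series as a covariate. Rgs9, the RGS protein of photoreceptors, was near the limit of detection at 9.67 to 19.1 normalized counts in mutant and 22.9 to 41.7 in wild-type libraries. Rgs12, a large relative of Rgs14, had 4.96 ± 2.37 FPKM in mutant and 10.4 ± 5.19 FPKM in wild-type libraries (SD), with a limma adjusted p of 0.538, or 0.0258 with the covariate. On the log2 scale Rgs12 differed by −0.22 from wild-type 1 and 2 and by −1.70 from wild-type 3 and 4.

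In the 46 tested G protein-coupled receptors 12 differences were positive and the median was −0.14. Adgrg3, an adhesion receptor, had 446, 438 and 413 normalized counts in mutant 1 to 3, against 649, 861, 1031 and 760.0 in wild-type 1 to 4. No mutant value reached a wild-type one, with a log2 difference of −0.91 (SE 0.20), a limma adjusted p of 0.538, or 0.0258 with the title series as a covariate, and a DESeq2 adjusted p of 0.0147. Ltb4r1, a receptor for leukotriene B4 that guides neutrophils, had 87.5, 33.0 and 50.7 normalized counts in mutant 1 to 3, against 115, 135, 199 and 156 in wild-type 1 to 4, a difference of −1.47 (SE 0.37) that limma gave an adjusted p of 0.538, or 0.0258 with the covariate. DESeq2 called it at the very edge of the threshold, with an adjusted p of 0.04999. Markers of neutrophils and monocytes, 15 of 15 of which were in the table, with Ly6g alone at 0 in a library (mutant 3), summed to 50782, 11052 and 13495 in mutant 1 to 3, against 52551, 46157, 90227 and 51722 in wild-type 1 to 4. Their part in the receptor values was not tested. The most abundant receptor, Adgrg1, which marks stem cells, had 399 ± 125 FPKM in mutant and 693 ± 399.8 FPKM in wild-type libraries (SD), with a limma adjusted p of 0.562, or 0.0264 with the covariate. On the log2 scale Adgrg1 differed by 0.18 from wild-type 1 and 2 and by −1.38 from wild-type 3 and 4. In the same order the values were −0.79 and −1.03 for Adgrg3 and −1.22 and −1.72 for Ltb4r1.

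Among the 12 alpha subunits 6 differences were positive (median −0.01), and among the 12 beta and gamma subunits 7 were positive (median 0.05). Gnas, the stimulatory alpha subunit and most abundant of the alpha list, had 412 ± 42.5 FPKM in mutant and 433 ± 40.7 FPKM in wild-type libraries (SD). Gnat2, the cone transducin, differed by 0.36 (SE 0.19) with all mutants above, and Gna12 by −0.71 (SE 0.38). The gamma subunits Gng11 and Gngt2 differed by 0.71 (SE 0.32) and 0.78 (SE 0.39), and Gng5 was the most abundant of its list at 284 ± 86.5 FPKM in mutant and 196 ± 75.2 FPKM in wild-type libraries (SD). Limma gave Gnat2, Gna12, Gng11, Gngt2 and Gng5 an adjusted p of 0.538 each, and with the title series as a covariate 0.0258 to Gna12, Gng11, Gngt2 and Gng5 and 0.174 to Gnat2. Against wild-type 1 and 2 the log2 difference was 0.42 for Gnat2, −0.15 for Gna12, 0.34 for Gng11, 0.29 for Gngt2 and 0.09 for Gng5. Against wild-type 3 and 4 it was 0.31, −1.26, 1.08, 1.28 and 0.98 in the same order.

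Proteins with RGS-homology domains and other desensitising proteins showed 2 positive differences in 15, with a median of −0.54, and effectors 2 in 25, with a median of −0.53. For the RGS-homology list the median was 0.04 against wild-type 1 and 2 and −0.83 against wild-type 3 and 4, and for effectors −0.07 and −1.06. Genes of these lists are long when the exons of all annotated transcripts are joined. Their median exonic length was 6451 and 6597 bases against 3787 bases for all tested genes. Wild-type 3 and 4 had the length slope of 0.24. The part of length in these medians was not tested. Grk3, a receptor kinase, differed by −0.86 (SE 0.37), and Arhgef12 by −0.54 (SE 0.24). The related Arhgef1 was the most abundant of that list at 72.0 ± 4.21 FPKM in mutant and 108 ± 48.7 FPKM in wild-type libraries (SD). Of the effectors, Adcy3, an adenylyl cyclase, differed by −1.38 (SE 0.58) and Pde4d, which breaks down cyclic AMP, by −0.41 (SE 0.17) with no overlap between the groups. Prkar1a, a regulatory subunit of protein kinase A, had the highest level among effectors, at 158 ± 12.2 FPKM in mutant and 168 ± 12.7 FPKM in wild-type libraries (SD). The 9 GoLoco and other non-receptor regulators had 2 positive differences and a median of −0.15. In that list Ccdc88c differed by −0.97 (SE 0.34) with every mutant below, and Gpsm2, a GoLoco protein of spindle orientation, by −0.50 (SE 0.23). The most abundant entry, Gps1, is known as a subunit of the COP9 signalosome and does not belong to the GoLoco proteins. It had 72.6 ± 5.36 FPKM in mutant and 81.6 ± 16.4 FPKM in wild-type libraries (SD). The limma adjusted p was 0.538 for Grk3, Arhgef12, Adcy3, Pde4d, Ccdc88c and Gpsm2 and 0.540 for Arhgef1. With the title series as a covariate it was 0.0306 for Grk3, 0.0265 for Arhgef1 and 0.0258 for Adcy3 and Ccdc88c, while Arhgef12, Pde4d and Gpsm2 stayed above the threshold, at 0.0637, 0.0878 and 0.0519. Of those that passed, the log2 difference from wild-type 1 and 2 was −0.25 for Grk3, 0.09 for Arhgef1, −0.45 for Adcy3 and −0.43 for Ccdc88c. Against wild-type 3 and 4 it was −1.47, −1.51, −2.31 and −1.50 in the same order.

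**Figure D5:**
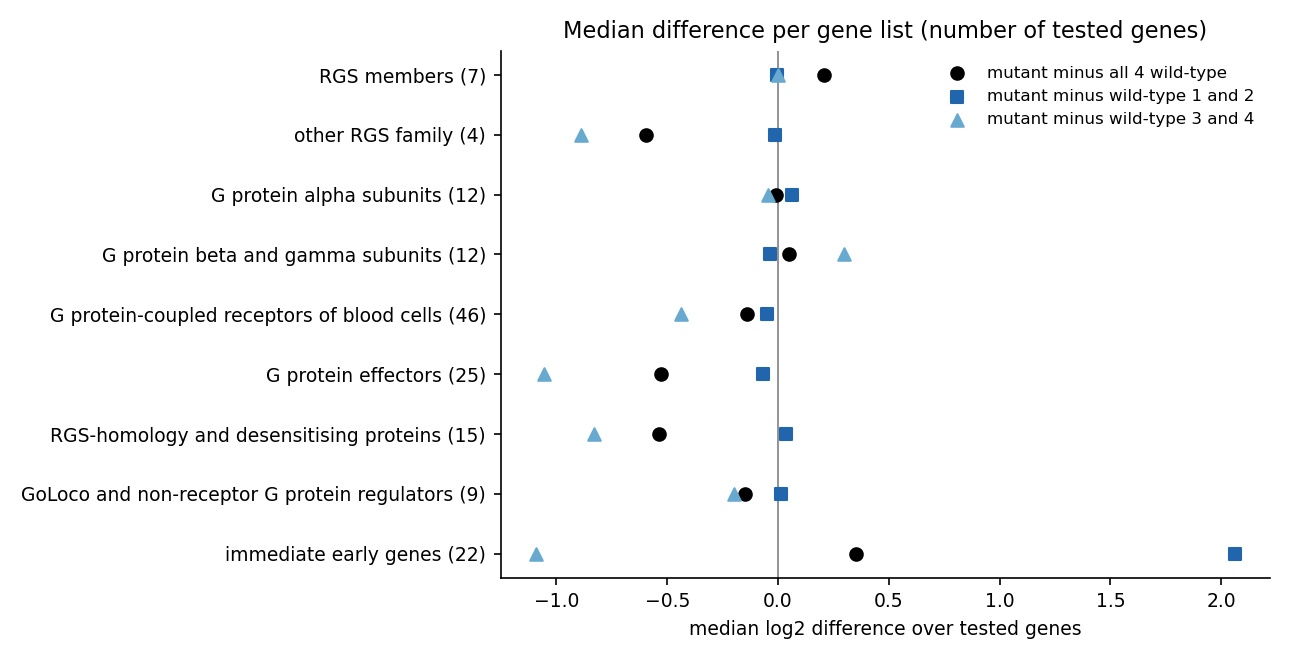
Median log2 difference over the tested genes of each list, the number of which stands in brackets, of the mutant libraries from all 4 wild-type libraries (black), from wild-type 1 and 2 (squares) and from wild-type 3 and 4 (triangles). Effectors and RGS-homology proteins lie near 0 against wild-type 1 and 2 and at −1.06 and −0.83 against wild-type 3 and 4, and the immediate early genes at 2.06 and −1.09.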

How the data were processed

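Read quality (FastQC 0.11.7), the genome build GRCm38 and STAR 2.7.3a are named, with DESeq2 1.12.4, Cufflinks 2.2.1 and HTSeq 0.6.1, as what the authors used, per the submitters' processing notes. Libraries were unstranded SMART-Seq v4 cDNA libraries, per the labels. The deposited signal was a normalized count per gene, and 100% of its values were whole multiples of 1 step per library (tolerance 0.01), so whole reads were recovered. The second deposited table held the authors' FPKM for 66660 transcripts, of which 99.1% matched GENCODE vM21. Genes with at least 10 normalized counts in at least 3 libraries (16047) entered a fit of log2(normalized count + 1), mutant minus wild-type, by limma 3.58.1 (R 4.3.3), with Benjamini-Hochberg adjustment at 0.05. The recovered reads were tested with edgeR 4.0.16 and DESeq2 1.42.0. The script was tested on simulated data. The 7 genes and the lists were chosen with earlier results of these data known. In each list the genes named were the 2 of smallest p and the 1 of highest FPKM. Each RGS gene also has the 2 genes closest to it in Pearson's r. Motifs were searched in RefSeq promoter windows. Intervals cover counting error only.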

Additional observations from a re-analysis of the deposited data

Results flagged for a closer look

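In 46 groups of libraries examined for a single library far from the others, 2 were marked, and chance marks about 1 group in 20. Rgs10 in wild-type 2 had 160.0 normalized counts, against 46.7 to 65.6 in the other wild-type libraries. The summed neutrophil and monocyte markers of wild-type 3 reached 90227 normalized counts, against 46157 to 52551 in the other wild-type libraries. For both the gap to the nearest library, as a share of the range of the group, exceeded Dixon's critical value.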

How the results depend on the processing

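No paired analysis was possible because the labels give no replicate number shared between the genotypes. Limma called 0 of all genes and 0 of the pathway genes with a pseudocount of 0.5 or 5, with no filter or one at 50, with TMM or quantile scaling, with summed FPKM, and, leaving out each library in turn, 0 to 0 genes, and edgeR called 0. Other settings gave other counts, and the cause was not tested. All genes and pathway genes called were 107 and 2 with DESeq2, 51 and 2 against the first wild-type pair (1 and 2) alone, 6828 and 55 against the second (3 and 4) alone, 6010 and 56 within the shared title series, 1022 and 14 among the other 3 libraries, 3597 and 33 with the title series as a covariate, and 127 and 4 with the length slope as a covariate. A lone mutant among the other 3 libraries is assumed to vary like the rest. The genes whose transcript share passed numbered 0 in every setting. Leaving out libraries makes the smallest possible p 0.05 to 0.1, so no gene could pass there and those settings decide nothing. With all 7 libraries, 1 gene alone at the smallest p could not pass either. Scaling by TMM or quantiles shifted the median of all genes by −0.01 and 0.05 on the log2 scale. With each library left out in turn, the log2 difference ran from 0.61 to 1.37 for Rgs2, 0.08 to 0.78 for Rgs1, −0.54 to 0.00 for Rgs3, 0.14 to 0.55 for Rgs18, 0.11 to 0.31 for Rgs19, −0.37 to −0.10 for Rgs14 and −0.97 to −0.12 for Rgs10. The sign turned for Rgs1 in 2, Rgs3 in 4, Rgs18 in 2 and Rgs19 in 2 of 22 alternatives and for the other 3 genes in none, though Rgs10 and Rgs14 came to −0.0015 and −0.0061.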

Other observations

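Transcripts annotated as subject to nonsense-mediated decay made up 81.3% ± 0.60 of the summed FPKM of Rgs1 in mutant and 81.0% ± 1.20 in wild-type libraries (SD), and those annotated as protein-coding 1.97% ± 0.41 in mutant and 2.22% ± 0.13 in wild-type libraries. For Rgs2 the protein-coding transcripts made up 58.3% ± 2.36 in mutant and 59.7% ± 2.87 in wild-type libraries. Rgs18 had 1 annotated transcript. Transcripts of 1 gene share most of their reads. The shares for Rgs1 and Rgs2 therefore depend on how the authors' FPKM divided those reads, and do not measure how much of the RNA codes for protein.

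The genes whose log2 values over the 7 libraries were most like those of Rgs1 were Fos (Pearson's r 0.996) and Klf2 (0.992), out of 11220 genes compared. For Rgs2 they were Zfp870 (0.980) and Zfp40 (0.980), for Rgs3 St3gal2 (0.996) and Dnmbp (0.995), for Rgs14 Ube3a (0.989) and Slc2a10 (0.974), for Rgs18 Hcst (0.997) and Cbwd1 (0.995), for Rgs19 Gm11223 (0.992) and Dhrs4 (0.991), and for the thinly read Rgs10 Gpn2 (0.956) and Myc (0.937). The libraries fall into sets, so these values describe likeness and carry no p.

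Rgs16, Rgs8, Rgs9bp and Rgsl1 were in the table and below the filter. Rgs16, a small RGS protein, had 3.37, 5.36 and 2.42 normalized counts in mutant 1 to 3, against 0.00, 6.23, 25.9 and 38.3 in wild-type 1 to 4.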
